A study of Mus musculus with 8 samples.

Results

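Regulators of G protein signaling, the RGS proteins, were followed at the RNA level in 4T1 mouse mammary carcinoma cells separated by the surface protein SCA1. The set held 9 genes, Rgs16, Rgs2, Rgs3, Rgs10, Rgs12, Rgs14, Rgs17, Rgs19 and Rgs20, matched by symbol to the Ensembl identifiers of the deposited count table. Of these 9 genes, 8 were among the 16341 genes counted and all 8 passed the filter on low counts. Rgs17 was not analysed here. The set was selected on the difference of Rgs16 between 4T1-Sca1+ and 4T1-Sca1- libraries in these same data, so the differences of the 9 genes between the groups are given as a description, without a p-value, and the counts of them past a threshold support nothing.

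G protein coupled receptors act by loading GTP onto the alpha subunit of a heterotrimeric G protein, which then parts from the beta and gamma subunits, and both parts of the complex act on effectors. RGS proteins end this signal: their shared RGS domain speeds up the hydrolysis of GTP by the alpha subunit. Most act on the Gi and Gq classes of alpha subunit, and their transcripts are known to respond quickly to hormones, cytokines and mitogens in many cell types.

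RNA was sequenced from 4T1-Sca1+ and 4T1-Sca1- cells, 4 libraries in each group, all from 1 established line derived from a mouse mammary tumor, and the labels name no treatment. The labels give the parental 4T1 line as the source and a CD45-negative gate in both groups, while the protocol in the labels speaks of tumor stained for SCA1 and passed over magnetic columns. Nothing in the labels says that the replicates were separate sorts or cultures, so the p-values below measure the spread between these libraries, which may be technical. The comparison asks which transcripts separate cells that carry SCA1 from cells that do not.

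The 4T1-Sca1+ libraries held 15041995 to 16968215 counts each, and the 4T1-Sca1- libraries 13561804 to 16142836. Ly6a, the gene of SCA1, stood at a normalized count of 167 ± 20.2 (SD, n = 4) in the SCA1-positive group and 1.79 ± 1.73 in the other, in the direction of the labels. Epithelial markers were abundant in both groups, with a summed normalized count of 54183 to 59105 in 4T1-Sca1+ and 53743 to 57955 in 4T1-Sca1- libraries, and 7 of the 8 exceeded 10 counts in some library. At an edgeR adjusted p under 0.05, 2 of the 7 epithelial markers tested were higher and 3 lower in 4T1-Sca1+ cells. The shares over all tested genes, to be set beside each count of markers here, were 31.3% higher and 30.2% lower. Of the 14 leukocyte markers counted, 9 had at most 10 counts in every library, Ptprc (CD45) among them, and the 14 summed to 1117 to 1182 against 1062 to 1167. Of the 5 leukocyte markers tested, 4 were higher in 4T1-Sca1+ cells, S100a8 (38.5 ± 5.50 against 7.52 ± 3.54), Csf1r (39.8 ± 4.79 against 17.8 ± 4.31), Cd74 (125 ± 6.42 against 65.5 ± 15.1) and Cd68 (236 ± 18.4 against 152 ± 9.67), while Cd14, which made up most of the sum, was lower (703 ± 32.2 against 865 ± 34.9). The 10 fibroblast and pericyte markers counted summed to 796 to 860 in 4T1-Sca1+ and 410 to 479 in 4T1-Sca1- libraries, with Col1a2, Fap, Cspg4 and Acta2 at no more than 10 counts anywhere. Of the 4 tested, 3 were higher in 4T1-Sca1+ cells, Notch3 (161 ± 33.6 against 9.68 ± 3.79), Pdgfra (560.2 ± 26.1 against 364 ± 25.6) and Col1a1 (47.6 ± 10.6 against 28.6 ± 3.93), and Postn (24.7 ± 7.87 against 24.2 ± 3.85) did not pass. S100a8 and Notch3 had 28 and 36 raw counts over the 4T1-Sca1- libraries. Both thus passed the filter on low counts only through the group where they were high, and had to differ. Dcn and Pdgfrb, too scarce to test, had 49 and 27 raw counts over the 4 4T1-Sca1+ libraries and 4 and 1 over the others. The 7 endothelial markers counted summed to 34.7 to 43.9 against 43.4 to 66.2, with Pecam1, Cdh5, Tek, Emcn and Vwf at no more than 10 counts. Tie1, the 1 endothelial marker tested, was lower in 4T1-Sca1+ cells (25.3 ± 4.20 against 39.0 ± 6.99). The part of such cells in the results below was not tested.

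Among the 8 RGS genes measured, Rgs16 and Rgs2 were lower in 4T1-Sca1+ cells, Rgs3 and Rgs12 were higher, and Rgs10, Rgs14, Rgs19 and Rgs20 did not pass the threshold of edgeR's quasi-likelihood test, an adjusted p under 0.05. So 2 of the 8 were called higher and 2 lower, while 61.5% of the 11717 genes tested were called in either direction, 31.3% of them higher and 30.2% lower in 4T1-Sca1+ cells. For 4 of the 8 genes the normalized counts of one group lay entirely above those of the other, as was so for 54.7% of all tested genes. Over the 8 genes the median log2 fold change (4T1-Sca1+ over 4T1-Sca1-) was 0.06, and over all tested genes it was 0.01. In sorted cells, fewer cells that express a gene and less RNA per cell cannot be told apart.

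**Figure D1:**
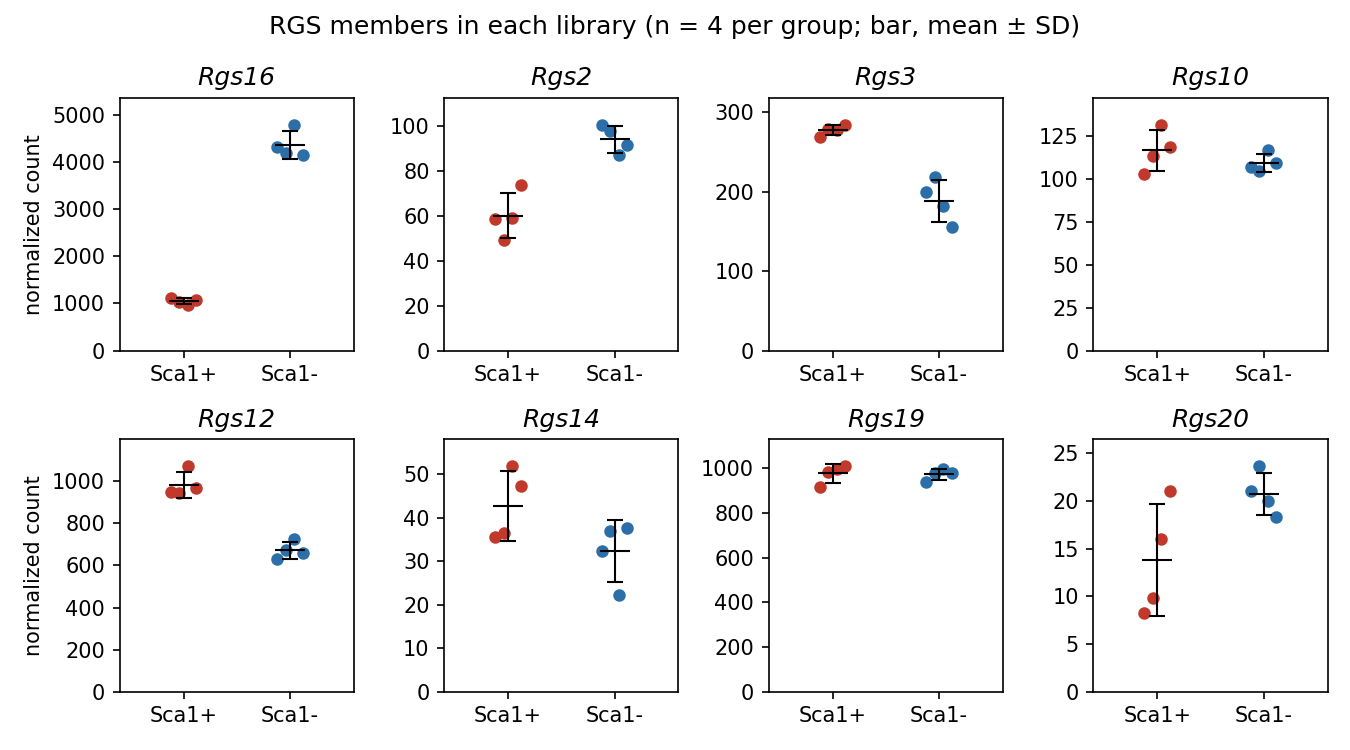
Normalized counts (y axes) of the 8 RGS genes measured, 1 panel for each gene, in the 4 4T1-Sca1+ and the 4 4T1-Sca1- libraries (points), with the mean and SD of each group as bars. Rgs16, Rgs2, Rgs3 and Rgs12 show no overlap between the groups, and the Rgs16 libraries lay at 966 to 1119.6 against 4140.0 to 4779.9.

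Rgs16, a small RGS protein of the R4 subfamily that acts on Gi and Gq alpha subunits, differed most of the set. Its gene (ENSMUSG00000026475) lies at chr1:153740349-153745468 on the plus strand of GRCm38. Its normalized counts, which are counts divided by the size factor of each library, were 1119.6, 1037, 966 and 1068 in 4T1-Sca1+ replicates 1 to 4 and 4313, 4197, 4779.9 and 4140.0 in 4T1-Sca1- replicates 1 to 4. Every 4T1-Sca1- library lay far above every 4T1-Sca1+ library. The means were 1048 ± 64.4 and 4357 ± 291 (SD, n = 4), a ratio of 4.16 in favor of 4T1-Sca1- cells, and the log2 fold change was -2.04 ± 0.06 (SE). This was the 13th lowest log2 fold change of the 11717 tested genes, and 1.45% of them had a larger absolute value. Rgs16 was also an abundant transcript, at percentile 85.1 of mean log2 CPM (counts scaled to a common library size), and no other gene at least as abundant had a log2 fold change as low. An antisense gene model, Gm28513, shares 236 exon bases with Rgs16 and was not analysed here. Because use of strand in counting was not given in the sources used here, its reads cannot be told from those of Rgs16.

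**Figure D2:**
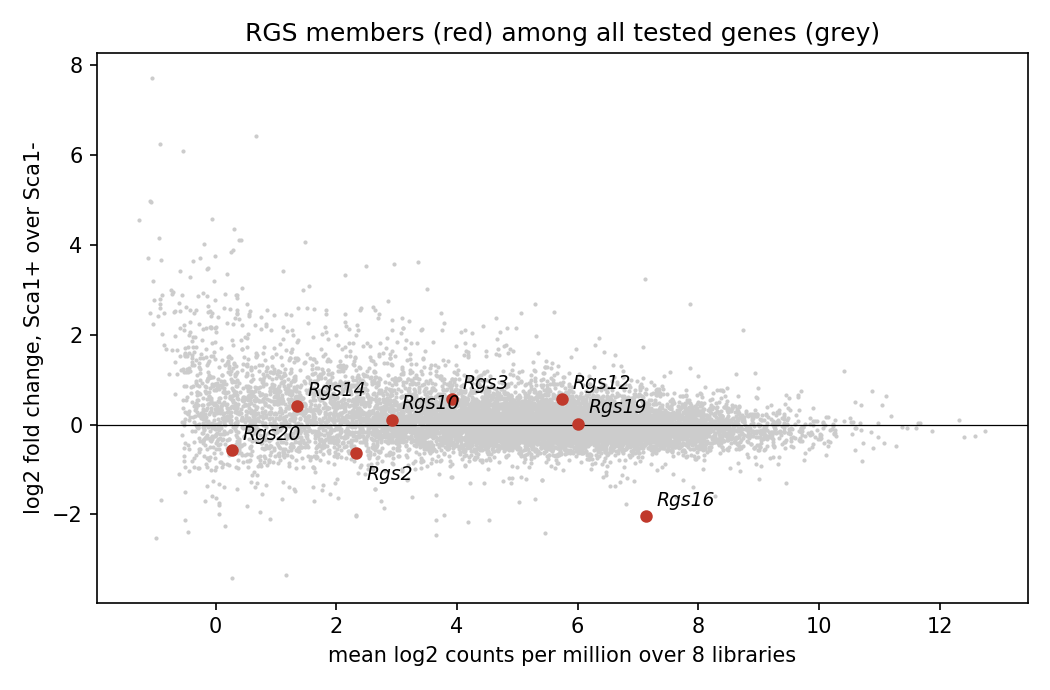
Log2 fold change of 4T1-Sca1+ over 4T1-Sca1- (y axis) against mean log2 CPM over the 8 libraries (x axis) for the 11717 tested genes (grey) and the 8 RGS genes (red). Rgs16 lies at -2.04, below every gene of equal or greater abundance, while the other 7 RGS genes lie between -0.63 and 0.56.

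Rgs2, an R4 protein that prefers Gq, differed in the same direction and by less. The gene (ENSMUSG00000026360) lies at chr1:143999338-144004161 on the minus strand, on the chromosome that also carries Rgs16. Its normalized counts were 58.5, 49.3, 58.8 and 73.5 in 4T1-Sca1+ libraries and 100.3, 97.5, 86.8 and 91.3 in 4T1-Sca1- libraries. The highest 4T1-Sca1+ library stayed below the lowest 4T1-Sca1- library. The means were 60.0 ± 10.01 and 94.0 ± 6.07, and the log2 fold change was -0.63 ± 0.13, and 14.4% of tested genes had a larger absolute value. The 257 and 358 raw counts behind these means make Rgs2 less precise than Rgs16, which rested on 4465 and 16525.

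The promoters of Rgs16 and Rgs2 are shown because these were the members lower in 4T1-Sca1+ cells. They are the 250 bases before the start of the RefSeq transcript, read 5′ to 3′ on the strand of the gene in GRCm38.p6, at chr1:153740103-153740352 for Rgs16 and chr1:144004150-144004399 for Rgs2. Capitals mark matches on either strand to TGACG, the core of the site bound by CREB, TGANTCA, the site bound by AP-1, TATAAA, the TATA box, or TTCNNNGAA, the site bound by STAT factors.
Rgs16: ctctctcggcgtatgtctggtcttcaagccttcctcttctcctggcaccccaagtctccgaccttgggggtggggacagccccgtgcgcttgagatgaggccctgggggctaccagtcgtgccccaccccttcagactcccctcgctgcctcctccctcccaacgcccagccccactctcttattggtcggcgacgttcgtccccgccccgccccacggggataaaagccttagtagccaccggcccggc
Rgs2: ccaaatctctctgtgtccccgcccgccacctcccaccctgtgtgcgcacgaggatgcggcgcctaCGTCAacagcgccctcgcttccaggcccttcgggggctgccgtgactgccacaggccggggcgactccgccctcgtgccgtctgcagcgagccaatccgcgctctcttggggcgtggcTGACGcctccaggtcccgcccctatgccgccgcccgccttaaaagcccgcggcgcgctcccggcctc
Rgs2 held TGACG at 185 and at 67 bases before its start, the first of them on the opposite strand. The Rgs16 window held no exact match to any pattern marked in capitals. Over all 32817 promoters of the RefSeq table, 17.7% held TGACG, 6.75% TGANTCA, 12.4% TATAAA and 7.01% TTCNNNGAA. A loose NF-kappaB pattern, in which only the outer G and C bases of the site are set, matched 4 times in Rgs16 with overlaps and 3 times in Rgs2, but 45.8% of all promoters held it, so it was not put in capitals. CACGTG, the E-box, was in 6.02% of all promoters and in neither of these. Both windows were rich in G and C, with 66.4% in Rgs16 and 72.4% in Rgs2 against a median of 52.4% over all promoters. Only exact matches were marked, at any position in the window, so stretches close to a pattern were left in small letters. A match of letters describes the window and is no evidence of binding.

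Rgs3, the third R4 member, was higher in 4T1-Sca1+ cells. It acts on Gi and Gq alpha subunits and has long and short forms. The gene (ENSMUSG00000059810) lies at chr4:62559847-62704001 on the plus strand. Its normalized counts were 269, 278, 277 and 284 in 4T1-Sca1+ libraries and 199.6, 218, 181 and 155 in 4T1-Sca1- libraries. The 4T1-Sca1+ libraries were nearly equal, whereas the 4T1-Sca1- libraries were spread more widely and all lay lower. The means were 277 ± 6.14 and 188 ± 26.6, and the log2 fold change was 0.56 ± 0.09.

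Rgs12 was higher in 4T1-Sca1+ cells as well. It is a large member of the R12 subfamily with a PDZ domain, Ras-binding domains and a GoLoco motif, which holds Gi alpha subunits in the GDP-bound state. The gene (ENSMUSG00000029101) lies at chr5:34949445-35039644 on the plus strand. Its normalized counts were 948, 942, 1069 and 965 in 4T1-Sca1+ libraries and 632, 674, 726 and 656 in 4T1-Sca1- libraries. The groups were well apart, and replicate 3 was the highest library of each. The means were 981 ± 59.7 and 672 ± 39.7, and the log2 fold change was 0.56 ± 0.06, close to that of Rgs3. With offsets corrected for GC content, the log2 fold change was 0.42 for Rgs3 and 0.41 for Rgs12, the lowest of the 19 alternatives for Rgs12 and for Rgs3. An antisense model, Gm43791, shares 467 exon bases with Rgs12 and was not analysed here.

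Rgs3 and Rgs12 each have 2 start sites in the RefSeq table, far apart in the gene, and counts per gene cannot say which was used. Their windows are shown because these were the members higher in 4T1-Sca1+ cells, at chr4:62559597-62559846 and chr4:62619422-62619671 for Rgs3 and chr5:34949198-34949447 and chr5:34998828-34999077 for Rgs12, all on the plus strand, with capitals as above.
Rgs3, start 1: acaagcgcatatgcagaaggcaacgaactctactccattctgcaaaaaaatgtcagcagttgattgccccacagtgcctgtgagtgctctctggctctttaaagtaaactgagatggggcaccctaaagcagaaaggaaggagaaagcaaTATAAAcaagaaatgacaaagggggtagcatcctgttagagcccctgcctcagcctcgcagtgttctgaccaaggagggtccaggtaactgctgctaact
Rgs3, start 2: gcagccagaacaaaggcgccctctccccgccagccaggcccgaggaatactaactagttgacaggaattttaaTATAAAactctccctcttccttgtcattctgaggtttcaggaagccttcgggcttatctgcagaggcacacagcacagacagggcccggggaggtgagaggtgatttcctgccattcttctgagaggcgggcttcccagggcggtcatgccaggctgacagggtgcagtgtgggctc
Rgs12, start 1: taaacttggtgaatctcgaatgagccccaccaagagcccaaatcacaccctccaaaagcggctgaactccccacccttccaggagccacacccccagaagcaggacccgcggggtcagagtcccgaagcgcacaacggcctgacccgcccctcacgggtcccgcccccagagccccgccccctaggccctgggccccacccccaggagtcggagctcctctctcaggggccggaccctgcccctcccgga
Rgs12, start 2: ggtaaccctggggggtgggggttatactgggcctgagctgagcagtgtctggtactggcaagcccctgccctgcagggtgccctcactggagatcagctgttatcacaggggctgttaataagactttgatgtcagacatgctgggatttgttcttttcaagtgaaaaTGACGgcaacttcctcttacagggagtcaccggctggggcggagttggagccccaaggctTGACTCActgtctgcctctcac
Both Rgs3 windows held TATAAA, at 100 and 177 bases before the start. The second Rgs12 window held TGACG at 82 bases and TGANTCA at 22 bases before the start, and the first held none of the patterns in capitals. The loose NF-kappaB pattern matched 7 times in the first Rgs12 window, with overlaps, 2 times in the second and in neither Rgs3 window. The windows held 48.4% and 56.8% G and C in Rgs3, and 68.4% and 55.6% in Rgs12.

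The other R12 members did not pass the threshold. Rgs14, a scaffold with Ras-binding domains and a GoLoco motif, was scarce, at 35.6, 36.5, 51.9 and 47.3 in 4T1-Sca1+ libraries and 32.5, 37.0, 22.3 and 37.7 in 4T1-Sca1- libraries. The groups overlapped, and replicate 3 was the highest of its group in 4T1-Sca1+ cells and the lowest in 4T1-Sca1- cells. Its log2 fold change was 0.41 ± 0.19 and did not pass the threshold. It did pass with library totals alone as the scaling (0.46) and without 4T1-Sca1+ replicate 1 (0.49). Rgs14 (ENSMUSG00000052087) lies at chr13:55369732-55384687.

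Rgs10, the small R12 member known from microglia and T cells, stood at 103, 113, 132 and 119 in 4T1-Sca1+ libraries and 107, 105, 117 and 109.6 in 4T1-Sca1- libraries. The 4T1-Sca1+ libraries enclosed the range of the others. Its log2 fold change was 0.11 ± 0.10. Rgs10 (ENSMUSG00000030844) lies at chr7:128373621-128418758 on the minus strand.

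The RZ subfamily, whose members carry a string of cysteines that is palmitoylated and include proteins that prefer Gz, was represented by Rgs19 and Rgs20. Rgs19 (ENSMUSG00000002458, chr2:181688419-181693977), also called GAIP, had 917, 985, 997 and 1009 normalized counts in 4T1-Sca1+ libraries and 937, 979, 995 and 980.5 in 4T1-Sca1- libraries. The groups covered nearly the same range. The means were 977 ± 41.4 and 973 ± 25.1, and the log2 fold change was 0.02 ± 0.05. Its sign depended on the fit. GC-corrected offsets gave -0.076, and leaving out replicate 1 of the 4T1-Sca1- group gave -0.00053. Of the tested genes, 95.3% had a larger absolute log2 fold change.

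Rgs20, also called RGSZ1, was the scarcest member. Its normalized counts were 8.23, 9.86, 16.0 and 21.0 in 4T1-Sca1+ libraries and 21.0, 23.6, 20.0 and 18.3 in 4T1-Sca1- libraries. Replicate 4 of the 4T1-Sca1+ group lay within the range of the 4T1-Sca1- libraries, and the other 3 lay below it. The log2 fold change was -0.57 ± 0.28 and did not pass the threshold, but it passed without 4T1-Sca1+ replicate 4 (-0.87) and with limma-voom (-0.65). The groups held 59 and 79 raw counts in all. Rgs20 (ENSMUSG00000002459, chr1:4909576-5070285, minus strand) shares 127 exon bases with Atp6v1h, a subunit gene of the vacuolar proton pump on the opposite strand, which was far more abundant at 553 ± 47.7 and 626 ± 58.6. With the use of strand in counting not given, reads from the shared bases cannot be told apart.

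Levels of different members were compared per length, as CPM per kilobase of exon. In 4T1-Sca1- cells Rgs16 led with 122 ± 8.34 (SD, n = 4), followed by Rgs19 with 28.6 ± 0.753, Rgs12 with 5.19 ± 0.311 and Rgs10 with 4.20 ± 0.211. Below them came Rgs2 with 1.70 ± 0.107, Rgs3 with 1.14 ± 0.160, Rgs14 with 0.4998 ± 0.109 and Rgs20 with 0.320 ± 0.0339. Neighbors in this order did not overlap in their libraries, except Rgs14 and Rgs20.

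In 4T1-Sca1+ cells Rgs16 at 29.6 ± 1.90 and Rgs19 at 29.0 ± 1.19 overlapped and could not be ordered. Rgs12 followed at 7.64 ± 0.443, Rgs10 at 4.51 ± 0.445, Rgs3 at 1.70 ± 0.0368, Rgs2 at 1.09 ± 0.183, Rgs14 at 0.668 ± 0.124 and Rgs20 at 0.215 ± 0.0914, with no overlap between neighbors. On this scale Rgs2 and Rgs3 thus changed places between the groups. The scale divides by all annotated exon bases of a gene, 10801 for Rgs3 and 3627 for Rgs2. In normalized counts Rgs3 lay above Rgs2 in both groups, at 277 against 60.0 and 188 against 94.0. Because counts per gene cannot say which form of Rgs3 was used, the order of these 2 genes depends on the length taken. The ratio of Rgs2 to Rgs3 per kilobase ran from 0.528 to 0.772 in the SCA1-positive and from 1.33 to 1.75 in the SCA1-negative group. The ratio of Rgs16 to Rgs19 ran from 0.923 to 1.164 and from 4.03 to 4.58. Ratios within a library do not depend on how libraries are scaled to each other.

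Summed by subfamily on the same per-kilobase scale, the 3 R4 members reached 32.4 ± 1.93 in 4T1-Sca1+ and 124.9 ± 8.27 in 4T1-Sca1- cells. Rgs2 and Rgs3 together contributed 2.79 ± 0.204 and 2.84 ± 0.242. On this scale their opposite differences left their sum nearly level, and the gap came from Rgs16. The 3 R12 members summed to 12.8 ± 0.973 and 9.88 ± 0.407, and the 2 RZ members measured summed to 29.2 ± 1.26 and 28.9 ± 0.746.

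The 8 members and 8 further RGS genes with a row in the table together gave a pool of 16 RGS genes. The pool held 78.1 to 80.7 CPM per kilobase in 4T1-Sca1+ libraries and 161.5 to 181.3 in 4T1-Sca1- libraries. Without Rgs16, the remaining 15 genes summed to 46.4 to 51.7 and 44.2 to 47.1, and the groups overlapped. Rgs16 made up 34.5% to 40.6% of the pool in 4T1-Sca1+ cells and 71.8% to 74.0% in 4T1-Sca1- cells, while Rgs19 made up 34.9% to 37.4% and 16.2% to 17.8%. The share of Rgs19 thus differed between the groups although the ranges of its own level overlapped.

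**Figure D3:**
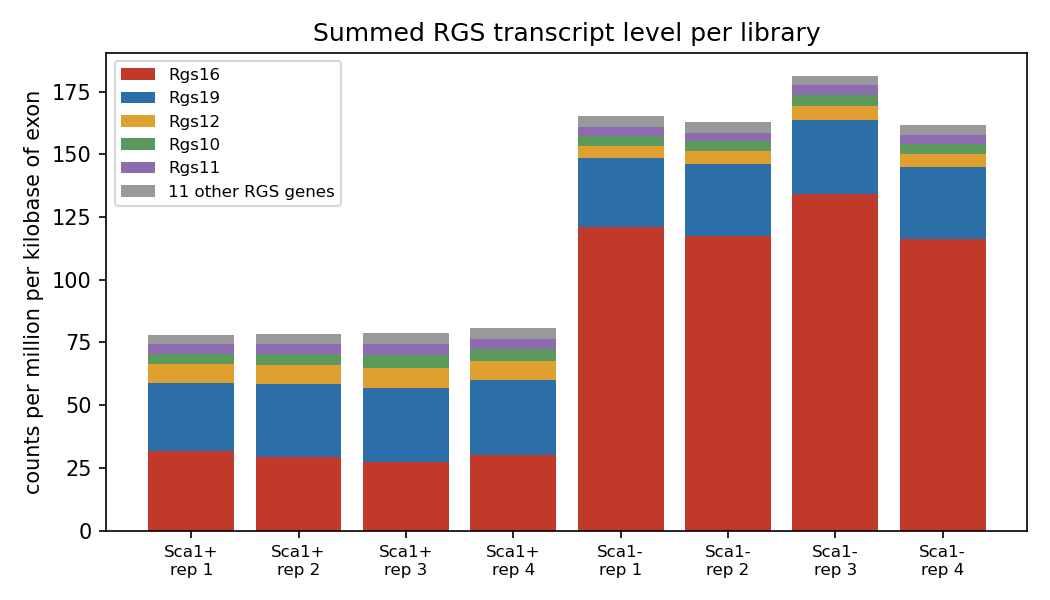
Summed level of the 16 counted RGS genes in CPM per kilobase of exon (y axis) in each of the 8 libraries (bars), stacked by gene. Rgs16 accounts for 34.5% to 40.6% of the bar in 4T1-Sca1+ libraries and 71.8% to 74.0% in 4T1-Sca1- libraries, while the rest of the bar is of similar height in all 8.

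Of 12 further RGS genes listed, 8 had a row, 3 passed the filter and 4 were not analysed here. Of the 3 tested, 1 was called higher and 0 lower by edgeR in 4T1-Sca1+ cells, and 0 were lower at an unadjusted p under 0.05 or by DESeq2 or limma-voom. For comparison, 31.3% of all tested genes were called higher and 30.2% lower. Rgs11, an R7 member known from retinal bipolar cells, was the one called. It had 244, 257, 286 and 249 normalized counts in 4T1-Sca1+ libraries and 223, 222, 248 and 225 in 4T1-Sca1- libraries. The groups overlapped, and the log2 fold change was 0.19 ± 0.08 (edgeR adjusted p = 0.0448).

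The call of Rgs11 was weak. It was lost in 13 of 19 alternatives, with GC-corrected offsets at a log2 fold change of 0.01, and with the replicate number as a block at an adjusted p of 0.0505. It was also lost without 4T1-Sca1+ replicate 2 (0.19), 3 (0.14) or 4 (0.21) and without 4T1-Sca1- replicate 1 (0.17), 2 (0.17) or 4 (0.18). Rgs11 shares 138 exon bases with Arhgdig, a gene on the opposite strand that stood at 161 ± 14.2 and 306 ± 21.4. With the use of strand in counting not given, reads from these bases cannot be told apart.

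Rgs9, the R7 member of photoreceptors and striatum, stood at 25.4 ± 5.95 and 22.3 ± 3.58 (log2 fold change 0.20 ± 0.22, adjusted p = 0.458). Rgs22 stood at 11.3 ± 2.34 and 14.7 ± 5.55 (-0.37 ± 0.30, adjusted p = 0.306). Rgs5, a gene typical of pericytes, had 1, 3, 5 and 3 raw counts in 4T1-Sca1+ libraries and 0 in all 4 4T1-Sca1- libraries, too few to pass the filter. A count of 0 allows up to 3 counts in a library, so no fold was computed. Rgs8 had at most 5 counts in any library, and Rgs1, Rgs4 and Rgs7 had at most 3.

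Other proteins with an RGS or RGS-like domain were counted as a list of 15, of which 13 had a row and 11 were tested. Of these 11, 2 were higher, 5 were lower and 4 did not pass, beside 31.3% higher and 30.2% lower over all tested genes, with a median log2 fold change of -0.12 against 0.01 over all tested genes. Arhgef12 and Arhgef11, exchange factors for small GTPases that act downstream of G12 and G13 alpha subunits, were the higher pair, at 2855 against 2430 normalized counts (0.25 ± 0.04, edgeR adjusted p = 5.4e-05) and 860.1 against 742 (0.23 ± 0.05, adjusted p = 0.00138). Among the lower genes were Grk6 (-0.20 ± 0.05, adjusted p = 0.00336) and Grk4 (-0.47 ± 0.19, adjusted p = 0.0373), kinases that phosphorylate active receptors. The Grk4 call was lost in 11 of 19 alternatives, among them fits without 4T1-Sca1+ replicate 1 (-0.46) or 4 (-0.38) and without 4T1-Sca1- replicate 1 (-0.47), 3 (-0.44) or 4 (-0.45).

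Of 16 alpha subunit genes, the proteins on which RGS proteins act, 9 were tested, with 2 higher, 3 lower, 4 not past the threshold and a median of 0.02. The 5 of 9 called lay near the 61.5% called over all tested genes. Gnao1, the alpha subunit of Go, was highest of the called genes, at 471 ± 33.4 in 4T1-Sca1+ and 153 ± 21.3 in 4T1-Sca1- cells (1.63 ± 0.09, adjusted p = 6.2e-11). Gnai3, a Gi alpha subunit and a target of R4 and R12 proteins, was lower at 2178 ± 90.5 against 2824 ± 168 (-0.36 ± 0.05, adjusted p = 9.3e-06). Gna13 was lower (-0.18 ± 0.06, adjusted p = 0.00764), and Gna12 was higher (0.23 ± 0.06, adjusted p = 0.00237) but not past the threshold with GC-corrected offsets (0.01).

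Of 17 beta and gamma subunit genes, 9 were tested, with 2 higher, 4 lower, 3 not past the threshold and a median of -0.10. The 6 of 9 called were again near the 61.5% of all tested genes. Gng2 was higher (0.39 ± 0.10, adjusted p = 0.0024), as was Gnb4 (0.22 ± 0.09, adjusted p = 0.0353). Gng12 (-0.23 ± 0.05, adjusted p = 0.0013) and Gnb1 (-0.22 ± 0.04, adjusted p = 0.000133) were the lowest of the called genes. The Gnb4 call was lost in 8 of 19 alternatives, among them the DESeq2 test (0.21, adjusted p = 0.102) and no low-count filter (0.21). At an adjusted p under 0.01 it was lost as well. So it was without 4T1-Sca1+ replicate 1 (0.19) or 4 (0.20) and without 4T1-Sca1- replicate 2 (0.22), 3 (0.19) or 4 (0.21).

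Among other regulators of the G protein cycle, Arrb1 and Gpsm3 were the highest of the called genes. Of 13 listed, 8 were tested, with 4 higher, 2 lower, 2 not past the threshold and a median of 0.25, where 61.5% of all tested genes were called, 31.3% higher and 30.2% lower. Arrb1, beta-arrestin 1, which uncouples active receptors from G proteins, stood at 439 ± 18.8 and 133 ± 28.1 (1.74 ± 0.11, adjusted p = 2.9e-10). Gpsm3, a GoLoco protein like Rgs12 and Rgs14, stood at 274 ± 42.7 and 116 ± 14.7 (1.26 ± 0.12, adjusted p = 7.7e-08). Ric8b, a chaperone of alpha subunits, was lower (-0.22 ± 0.07, adjusted p = 0.00664), and so was Ccdc88a, which encodes girdin (-0.20 ± 0.07, adjusted p = 0.0151). The Ccdc88a call was lost without 4T1-Sca1- replicate 1 (-0.17), with GC-corrected offsets (-0.09) and with library totals alone (-0.16).

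Effectors, the adenylyl cyclases and phospholipases C-beta, numbered 13, of which 6 were tested. In 4T1-Sca1+ cells 2 were higher and 0 lower by edgeR, with 1 lower at an unadjusted p under 0.05 and 0 lower by DESeq2 or limma-voom. The other 4 did not pass, and the median was -0.0028. The 2 of 6 called higher lay near the 31.3% higher over all tested genes, of which 30.2% were lower. Adcy6, a cyclase inhibited by Gi, stood at 1986 ± 149.8 and 1577 ± 49.2 (0.34 ± 0.05, adjusted p = 2.3e-05). Adcy3 was higher as well (0.28 ± 0.07, adjusted p = 0.0018), but not past the threshold with GC-corrected offsets (0.10).

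Of 69 receptors listed, 28 were tested, with 12 higher, 9 lower, 7 not past the threshold and a median of 0.18, beside 31.3% higher and 30.2% lower over all tested genes. With at least 10 counts asked of every library, 23 receptors were tested, 10 higher and 9 lower. Gper1, a receptor for estrogen, stood at 46.6 ± 5.05 in 4T1-Sca1+ and 4.49 ± 2.19 in 4T1-Sca1- cells. Ednra, the Gq-coupled receptor for endothelin-1, stood at 15.9 ± 5.92 and 2.13 ± 1.25, with 69 and 8 raw counts in all. Gper1 had 17 raw counts over the 4T1-Sca1- libraries, so both genes passed the filter only through the group where they were high and had to differ, and no p-value is given for them. P2ry12, a Gi-coupled receptor for ADP, was lower at 32.4 ± 3.92 against 62.5 ± 15.7 (-0.94 ± 0.19, adjusted p = 0.000344), and S1pr1, a Gi-coupled receptor for sphingosine 1-phosphate, was lower at 35.8 ± 7.09 against 58.4 ± 7.13 (-0.71 ± 0.17, adjusted p = 0.00128).

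**Figure D4:**
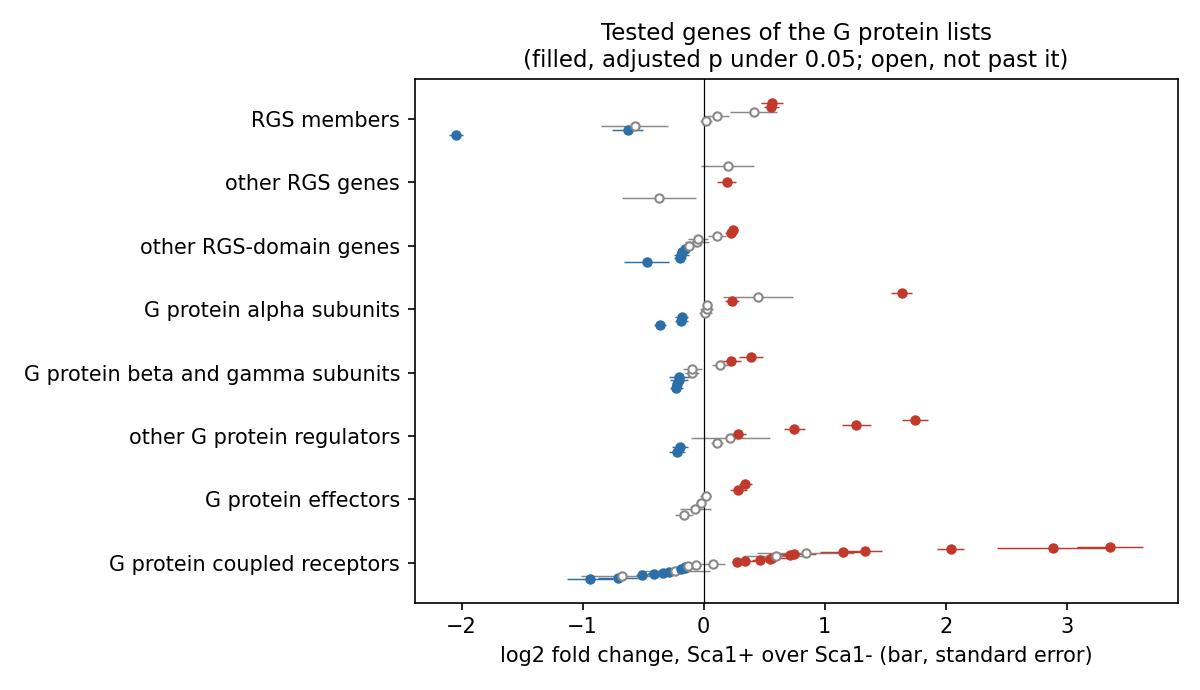
Log2 fold change of 4T1-Sca1+ over 4T1-Sca1- (x axis) for the tested genes of each G protein list (y axis), with each gene as a point, its standard error as a bar, and filled points for an adjusted p under 0.05. The medians ran from -0.12 for other RGS-domain genes to 0.25 for other G protein regulators, against 0.01 over all tested genes, and Rgs16 at -2.04 lay below all other genes shown.

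The genes whose pattern over the 8 libraries was most like that of Rgs16 were found from the root mean square difference of log2 CPM, centered on the mean of each gene. Edn1, which encodes endothelin-1, came first with a difference of 0.05, followed by Vgll3 (0.07), Sdcbp2 (0.09) and the chemokines Cxcl3 (0.15) and Cxcl10 (0.15). Edn1 stood at 102 ± 5.93 normalized counts in 4T1-Sca1+ and 417 ± 27.3 in 4T1-Sca1- cells. The measure was taken over all 8 libraries, so it picks genes with the same difference between the groups as Rgs16. That difference was thus fixed by the choice of these genes, and no p-value is given for them.

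Genes near Rgs16 and Rgs2 on chromosome 1 were looked up after the values of both were known. Of all tested genes 61.5% were called, 31.3% higher and 30.2% lower in 4T1-Sca1+ cells, so calls among neighbors are common anywhere. Within 500 kb of Rgs16, Glul and Lamc1 were higher (both 0.24, adjusted p = 0.000896 and 8.3e-05), and Dhx9 was lower (-0.29 ± 0.07, adjusted p = 0.000783). None of these 3 came near the difference of Rgs16. Within 500 kb of Rgs2, 4 genes were tested, of which 2 were lower. Uchl5 (-0.82 ± 0.08, adjusted p = 1.8e-07) and Cdc73 (-0.51 ± 0.06, adjusted p = 1.8e-06) were lower, whereas Glrx2 stood at -0.06 ± 0.09 (adjusted p = 0.541) and Trove2 at -0.04 ± 0.06 (adjusted p = 0.588). A link of any of these genes to Rgs2 was not tested.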

How the data were processed

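RNA of 4 4T1-Sca1+ and 4 4T1-Sca1- libraries was sequenced on a NextSeq 500 after TruSeq preparation. Per the submitters' processing notes, cutadapt 1.16 and STAR 2.5.3a were used with GRCm38 (mm10). The counting tool, its annotation and its use of strand are not given in the sources used here. The authors deposited raw counts per Ensembl gene. They also deposited a table of normalized signal, which equalled the counts divided by DESeq2 size factors; normalized counts in the text are these values.

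Symbols, positions and exon lengths came from GENCODE M21 on GRCm38, which matched 16200 genes and not the other 141. Counts were tested with edgeR 4.0.16 in R 4.3.3 (TMM, filterByExpr, quasi-likelihood, two-sided, Benjamini-Hochberg over 11717 genes, adjusted p under 0.05), with no covariate. The SE was the absolute log2 fold change over the square root of F. Levels between genes were TMM-scaled CPM per kilobase of exon. Promoters came from RefSeq (GRCm38.p6), and Rgs14 and Rgs20 had none there.

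The members and lists were chosen with earlier results of these data known. Named genes were all members, Ly6a, other RGS genes with over 3 counts in a library, the 2 highest and 2 lowest called genes of each other list, and the 5 genes most like Rgs16. Genes near Rgs16 and Rgs2 and genes sharing exon bases were added after values were seen. One gene near Rgs16 is not reported here. Alternatives used DESeq2 1.42.0 and limma 3.58.1, other scalings, filters and thresholds, GC-corrected offsets, the replicate number as a block and each library left out. Counting intervals were not used, and a floor of 3 counts per library covers counting error only.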

Additional observations from a re-analysis of the deposited data

Results flagged for a closer look

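In 3 of 82 groups of 4 libraries examined, 1 library stood apart from the other 3 by Dixon's criterion, and chance gives about 4.1 in this many. In 4T1-Sca1- replicate 3, Rgs11 stood at 248 normalized counts, against 222 to 225 in the other libraries of the group. Arhgef11 had 916 in 4T1-Sca1+ replicate 3, against 832 to 846 in the others of that group. Gpsm3 had 93.6 in 4T1-Sca1- replicate 1, against 122 to 124 in the others. No library of Rgs16, Rgs2, Rgs3, Rgs12 or the other members with a value stood apart in this way.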

How the results depend on the processing

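Under 19 alternatives, the RGS members called higher numbered 2 to 3 and those called lower 2 to 3, and Rgs16 stayed between -2.17 and -1.99. Rgs2 (-0.75 to -0.55), Rgs3 (0.42 to 0.63) and Rgs12 (0.41 to 0.60) kept their direction in all 19. Rgs19, near 0, turned to -0.076 with GC-corrected offsets and ran from -0.00053 to 0.048 with 1 library left out. With the replicate number as a block, 3605 genes were higher and 3452 lower, against 3668 and 3538 without it, and of the other RGS genes 0 were higher, against 1. The same numbers did not pair the libraries (correlations of deviations 0.0957, -0.150, -0.0339 and -0.00107).

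For the lists, the other RGS genes called higher were also 0 with DESeq2 size factors, the DESeq2 test, limma on the deposited normalized table, GC-corrected offsets and an adjusted p under 0.01, and 0 to 1 with 1 library left out. The other RGS-domain genes called lower (5) were 2 with library totals alone and at 0.01, and 2 to 6 with 1 library left out, at 3 without 4T1-Sca1+ replicate 4, 2 without 4T1-Sca1- replicate 1 and 3 without replicate 3. With GC-corrected offsets, 1 alpha subunit was higher (2) and 6 were lower (3), 1 other regulator was lower (2), and 1 effector was higher (2) and 2 were lower (0). Beta and gamma subunits called higher (2) were 1 with the DESeq2 test and at 0.01, and 1 to 3 with 1 library left out, at 1 without 4T1-Sca1+ replicates 1 or 4 or 4T1-Sca1- replicates 2, 3 or 4. Those called lower (4) were 2 with library totals alone, with upper-quartile scaling, at 0.01 and without 4T1-Sca1+ replicate 2, within 2 to 5. Other regulators called lower were 1 with library totals alone, at 0.01 and without 4T1-Sca1- replicate 1, within 1 to 2. Effectors called lower were 1 with limma on the deposited table and without 4T1-Sca1+ replicate 4 or 4T1-Sca1- replicate 2, within 0 to 1 with 1 library left out. Receptors called lower (9) were 5 with library totals alone and 4 at 0.01. The cause of these shifts was not tested. Scaling moved the median of all genes by at most 0.05. Rgs20, Rgs14 and Rgs22 rested on few counts, and RGS genes below the filter could not be compared.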
